A study of Homo sapiens and Mus musculus with 8 samples.

Results

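The genes described here are the Wnt ligands, their receptors and co-receptors, the secreted antagonists and the feedback and effector genes of the pathway, as listed in RNA-seq tables of 2 small cell lung cancer lines with and without decitabine. They were chosen by name: every gene called WNT, FZD, SFRP or DKK with a number, and a fixed set of receptors, regulators and nuclear factors. This gave 41 of 20863 genes in the table of the human line H146 and 37 of 16833 in that of the mouse line F1339, 44 names in all, of which 34 stand in both tables. H146 (NCI-H146) is an established human small cell lung cancer line and F1339 a mouse small cell lung cancer line, both grown in serum-containing RPMI medium. For each line there are 2 libraries of vehicle-treated cells and 2 of cells given 0.5 µM decitabine, for 96 h in H146 and 72 h in F1339. Each line is 1 cell line with no further genotype in the labels, and the libraries of an arm are called duplicates without saying whether they are separate cultures, so the p-values measure the spread between these libraries, which may be technical. Decitabine is a deoxycytidine analog that traps DNMT1, the maintenance DNA methyltransferase, and the study asked whether depleting DNMT1 from small cell lung cancer cells leads them out of the cell cycle through maturation.

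Wnt ligands are secreted lipid-modified glycoproteins. In the canonical branch a ligand joins a Frizzled receptor (FZD) and a co-receptor, LRP5 or LRP6, which halts the destruction complex of APC, AXIN proteins and kinases, so that β-catenin (CTNNB1) accumulates and acts with TCF/LEF factors in the nucleus. WNT5A and WNT11 are best known for β-catenin-independent signalling. SFRP proteins and WIF1 bind ligands outside the cell, NOTUM removes their lipid, and AXIN2, NKD1, ZNRF3, RNF43 and LGR5 are target genes that act back on the pathway. In the lung, Wnt signals take part in branching and in the maintenance of alveolar progenitors. RNF43 was among the names searched for and matched no gene in either table used here.

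Values are normalized counts: the authors scaled the reads of each gene by a size factor of the library, at 62462654 to 67108249 gene-assigned reads per library in H146 and 61364041 to 67892360 in F1339. 1 read is worth about 1 normalized count, so a gene with a low value carries a sizeable counting error. All neuroendocrine markers examined were listed in both lines. Markers of other cell types moved in H146: the summed endothelial markers stood at 376 to 433 in vehicle and 1194 to 1230 in decitabine, where 3 of the 4 listed were higher, and the summed fibroblast markers, mostly THY1, at 11195 to 12084 and 14901 to 15981, where 4 of 6 were higher and 1 lower. None of these listed markers was at 0 in any library. The part of these markers in the Wnt results was not tested. In these bulk libraries, fewer cells of a type and less RNA per cell cannot be told apart.

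In untreated H146 the most abundant Wnt gene per length was LGR4, a receptor for the R-spondins, which enhance Wnt signalling. LGR4 stood at 1906 and 1901 normalized counts per kb of exon in the 2 vehicle libraries. SFRP5, a secreted antagonist, followed at 1399 and 1279 per kb. The next genes in order were CTNNB1, the co-receptor gene LRP5, and the Frizzled genes FZD9 and FZD1, whose vehicle means ran from 1007 down to 926 per kb and whose libraries overlapped. The leading ligand was WNT9A, at 815 and 836 per kb, below each vehicle library of FZD1. WNT7B was the second ligand at 254 per kb on average, and WNT5A (98.7) and WNT5B (96.4) came next. At the bottom stood FZD7 and FZD4 at 1.84 and 1.79 per kb. Among the nuclear factors LEF1 was highest at 138 per kb, followed by TCF7 at 51.5. Exon lengths come from GENCODE release 29, which may differ from the annotation behind the counts.

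**Figure D1:**
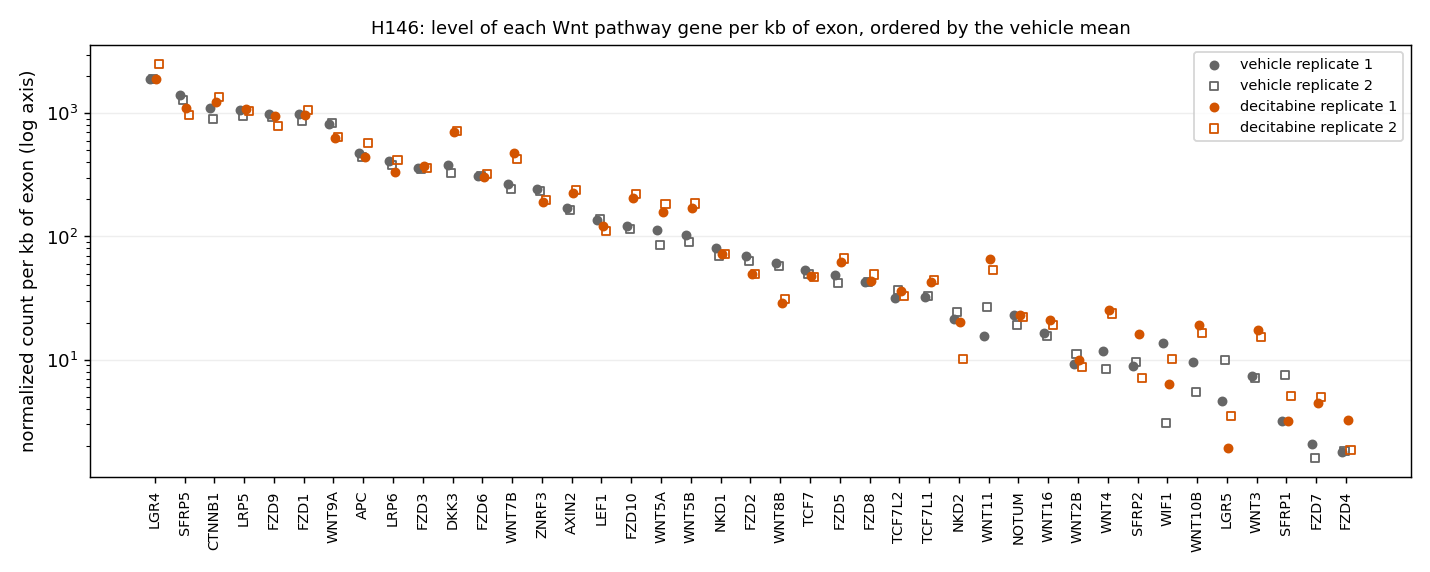
Normalized count per kb of exon (log axis) of the 41 Wnt genes of H146 in each of the 4 libraries, ordered by the vehicle mean. LGR4 leads at 1904 per kb and FZD4 is last at 1.79 per kb.

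With decitabine, 12 of the 41 Wnt genes of H146 were higher and 5 lower, and 24 were not called (limma with Benjamini-Hochberg adjustment over 20783 genes, adjusted p under 0.05). Of all genes tested 15.4% were called higher and 12.3% lower. All 41 listed members passed the filter on low values, FZD7 through its decitabine libraries alone, and genes with few reads had been removed before deposit, so these are shares of detected genes. The median log2 fold change of the members was 0.13, and that of all genes tested was -0.01. The arms did not overlap in 18 members with decitabine above and in 9 with decitabine below, against 31.5% and 30.6% of all genes. Ligands made up 7 of the 12 members that rose. The authors' deposited table calls 11 of the 41 members higher and 3 lower, as does DESeq2 on the recovered reads, where 12.9% and 10.5% of all genes were called. With the replicate number as a block 12 and 4 members were called, against 14.1% and 10.9% of all genes.

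**Figure D2:**
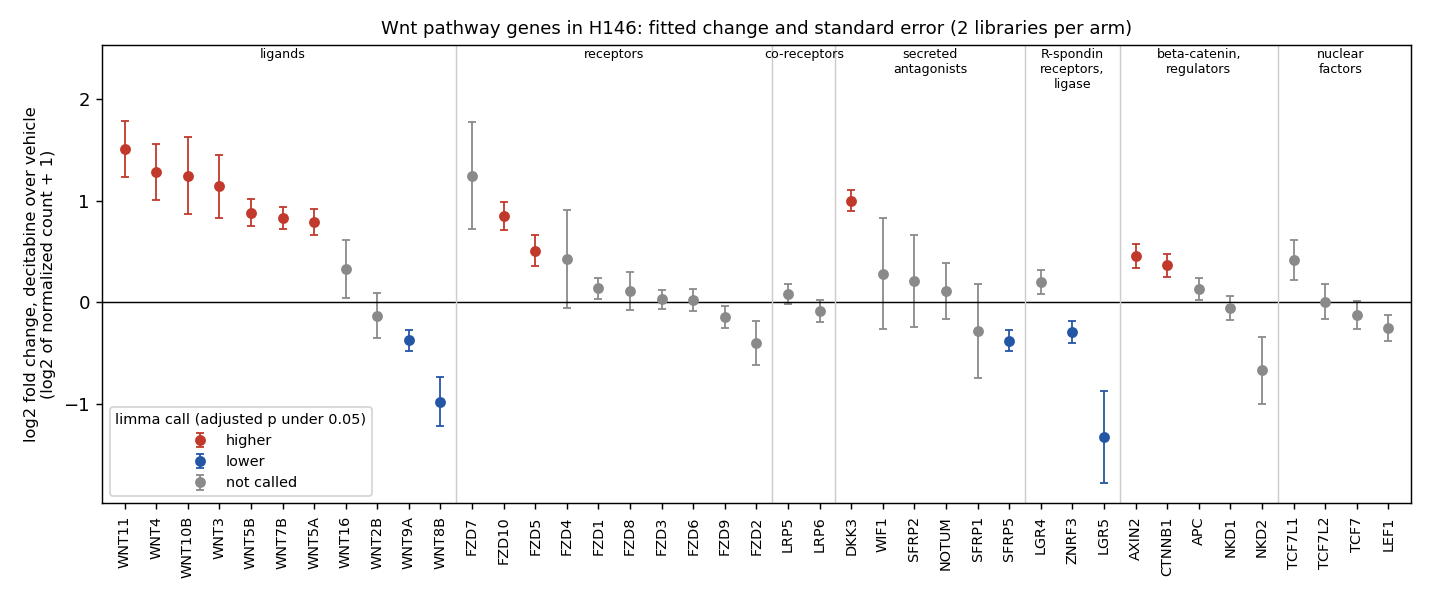
Log2 fold change of decitabine over vehicle with its standard error for the 41 Wnt genes of H146, by role, coloured by the limma call. Of the 11 ligands 7 are called higher and 2 lower, from WNT11 at 1.51 to WNT8B at -0.98. Of all genes tested 15.4% are called higher and 12.3% lower.

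Of the 11 ligand genes of H146, 7 rose, 2 fell and 2 were not called. Of all genes tested 15.4% rose and 12.3% fell. WNT7B, a ligand of the lung epithelium (chr22:45920362-45977129, minus strand, GENCODE release 29 on GRCh38), had 1337 and 1224 normalized counts in the vehicle libraries and 2407 and 2167 in the decitabine libraries, and the arms did not overlap. It rose 1.79-fold (log2 fold change 0.84 ± 0.11 SE, n = 2 per arm, adjusted p 1.7e-06 in limma). WNT5A went from 830 and 630 to 1168 and 1347, a rise of 1.72-fold (adjusted p 5.7e-05 in limma). Its close paralog WNT5B went from 442 and 388 to 736 and 797, a rise of 1.85-fold (adjusted p 1.8e-05 in limma). The lowest decitabine library lay above the highest vehicle library for both. WNT5B and WNT7B kept their calls under every alternative tried, while WNT5A was no longer called when limma ran with no variance trend (0.0785).

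The other 4 ligands that rose were scarce in vehicle. WNT11, which acts in cell movements of the embryo, had 37.1 and 64.7 normalized counts in vehicle and 158 and 127.5 in decitabine (2.81-fold, log2 fold change 1.51 ± 0.28 SE, adjusted p 0.00015 in limma). WNT4, known for its part in kidney and gonad formation, went from 53.2 and 38.0 to 115 and 107 (2.44-fold, adjusted p 0.00079 in limma). WNT3 stood at 32.1 and 30.8 in vehicle and at 76.0 and 65.7 in decitabine (2.25-fold, adjusted p 0.0067 in limma). WNT10B had 25.1 and 14.4 in vehicle against 50 and 43.5 in decitabine (2.37-fold, adjusted p 0.016 in limma). In all 4, both decitabine libraries lay above both vehicle libraries. With no variance trend WNT11 (adjusted p 0.0616) and WNT10B (0.0783) were not called. Without decitabine replicate 1 the calls of WNT11 (adjusted p 0.0651), WNT4 (0.0738), WNT3 (0.145) and WNT10B (0.19) were lost. Without decitabine replicate 2 those of WNT4 (0.0532), WNT3 (0.0804) and WNT10B (0.12) were lost, and WNT10B was also not called without vehicle replicate 2 (0.0866) or by DESeq2 (0.0975).

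The most abundant ligand went the other way. WNT9A fell from 3237 and 3319 normalized counts in vehicle to 2492 and 2566 in decitabine (log2 fold change -0.37 ± 0.10 SE, n = 2 per arm, adjusted p 0.0059 in limma), and the arms did not overlap. WNT8B, a ligand of the developing forebrain, had 129 and 122 in vehicle and 61.0 and 65.7 in decitabine (-0.98 ± 0.24 SE, adjusted p 0.0034 in limma). Both calls were lost without decitabine replicate 1 (adjusted p 0.0813 for WNT9A and 0.0913 for WNT8B) or replicate 2 (0.0536 and 0.0642), and that of WNT9A also with no variance trend (0.104). Summed, the 11 ligand genes held 6292 and 6023 normalized counts in vehicle and 7455 and 7458 in decitabine. WNT16 (51.7 ± 2.03 and 65.4 ± 3.68) and WNT2B (128 ± 17.9 and 116.6 ± 10.5, mean ± SD) were not called. Part of WNT2B overlaps the gene ST7L on the other strand, and whether the counting used strand is not given in the sources used here.

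**Figure D3:**
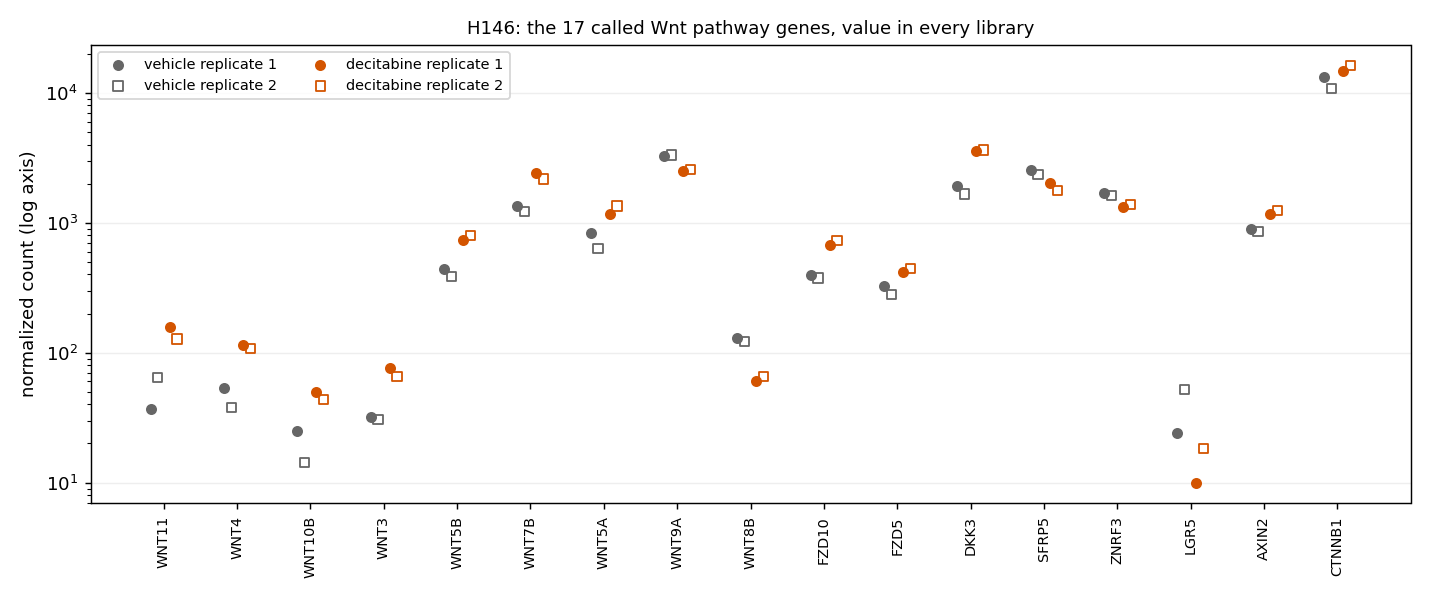
Normalized count (log axis) of the 17 called Wnt genes of H146 in each of the 4 libraries. In all 17 the decitabine libraries lie on one side of the vehicle libraries, from LGR5 at 10.0 to 52.3 up to CTNNB1 at 10810 to 16228. The calls rest on these same libraries, so this separation adds no support to them. Of all genes tested, 31.5% separate with decitabine above and 30.6% with decitabine below.

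Promoter sequences are shown for WNT4 and WNT3, the ligands with the largest rises among those with an entry, and for FZD9 and SFRP5, the receptor and antagonist genes with the highest vehicle means per kb, so that their CpG sites, the sites DNMT1 maintains, can be compared. They span 250 bases before to 50 after the start given by RefSeq (GRCh38.p14), 5′ to 3′ on the gene's strand, with each CpG in capitals. WNT4 lies at chr1:22143048-22143347 on the minus strand and holds 47 CpG, WNT3 at chr17:46818643-46818942 on the minus strand with 28, FZD9 at chr7:73433528-73433827 on the plus strand with 31, and SFRP5 at chr10:97771950-97772249 on the minus strand with 28.
WNT4: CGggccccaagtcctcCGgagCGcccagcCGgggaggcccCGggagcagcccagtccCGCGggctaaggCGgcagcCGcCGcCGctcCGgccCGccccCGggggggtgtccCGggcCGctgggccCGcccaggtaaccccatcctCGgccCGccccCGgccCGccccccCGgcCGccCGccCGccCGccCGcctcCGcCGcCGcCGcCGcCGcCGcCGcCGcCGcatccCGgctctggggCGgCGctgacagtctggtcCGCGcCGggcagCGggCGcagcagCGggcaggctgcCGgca
WNT3: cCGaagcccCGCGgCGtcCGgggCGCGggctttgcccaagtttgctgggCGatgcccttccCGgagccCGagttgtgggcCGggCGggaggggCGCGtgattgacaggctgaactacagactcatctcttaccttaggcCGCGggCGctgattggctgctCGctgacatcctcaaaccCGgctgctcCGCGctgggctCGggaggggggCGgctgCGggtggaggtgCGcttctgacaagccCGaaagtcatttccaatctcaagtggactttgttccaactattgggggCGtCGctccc
FZD9: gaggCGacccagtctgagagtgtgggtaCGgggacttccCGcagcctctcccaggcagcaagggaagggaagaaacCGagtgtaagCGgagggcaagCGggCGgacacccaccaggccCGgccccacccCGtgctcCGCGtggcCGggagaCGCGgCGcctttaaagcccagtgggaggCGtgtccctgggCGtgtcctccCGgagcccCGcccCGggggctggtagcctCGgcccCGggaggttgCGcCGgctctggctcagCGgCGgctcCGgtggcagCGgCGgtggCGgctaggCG
SFRP5: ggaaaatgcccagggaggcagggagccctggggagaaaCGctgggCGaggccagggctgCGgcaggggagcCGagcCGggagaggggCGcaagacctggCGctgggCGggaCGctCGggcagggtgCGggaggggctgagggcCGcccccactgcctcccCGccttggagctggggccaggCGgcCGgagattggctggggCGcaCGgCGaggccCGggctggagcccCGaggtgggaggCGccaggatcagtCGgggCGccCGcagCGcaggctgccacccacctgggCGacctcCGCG
All 4 are rich in CpG. WNT4 and WNT3 were called higher, SFRP5 was called lower and FZD9 was not called, and any link to CpG content was not tested. RefSeq entries matched 25 of the 41 members of H146, with 32 starts, of which 21 held 20 or more CpG, as did 41.2% of the 35116 promoters in the table. The median was 25 CpG for the starts of members called higher (7 to 47) and 25 for those not called (3 to 52). The 3 lower members with an entry ranged from 4 CpG in WNT8B to 53 in WNT9A. The TCF/LEF core, searched on both strands as CTTTGAA or its variants CTTTGAT, then CTTTGTA and lastly CTTTGTT, was in 3 of the 32 starts, among them WNT3, and in 13.8% of all promoters. These matches describe the letters in the windows only, and no methylation was measured in these libraries.

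Among the 10 Frizzled receptor genes of H146, 2 rose and 0 fell, where 15.4% and 12.3% of all genes did so. FZD10 (chr12:130162459-130165740, plus strand) went from 396 and 376 normalized counts in vehicle to 670 and 727 in decitabine, 1.81-fold with arms that did not overlap (log2 fold change 0.85 ± 0.14 SE, n = 2 per arm, adjusted p 3.1e-05 in limma), and it stayed called under every alternative tried. The divergent transcript FZD10-AS1 stood at 2374 and 2032 in vehicle and 2486 and 2537 in decitabine (log2 fold change 0.19, adjusted p 0.187 in limma). FZD5 had 324 and 281 in vehicle and 417 and 444 in decitabine (1.42-fold, adjusted p 0.014 in limma). Leaving out vehicle replicate 2 (adjusted p 0.0629) or either decitabine library (0.12 and 0.188) ended its call, as did limma with no variance trend (0.0875). FZD9 led the receptor genes per kb of exon, where its vehicle libraries overlapped those of FZD1. It had 2297 and 2182 normalized counts in vehicle and 2226 and 1849 in decitabine, with overlapping arms, as had FZD1, FZD3 and FZD6. FZD7, at 8.02 and 6.16 in vehicle and 17 and 19.3 in decitabine, was not called (adjusted p 0.0835 in limma), but was without a variance trend (0.0274). Neither co-receptor gene was called: LRP5 was at 6518 and 5877 in vehicle and 6702 and 6400 in decitabine, and LRP6 at 4262 and 3911 and at 3432 and 4327.

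Of the 6 genes of secreted antagonists in H146, 1 rose and 1 fell, where 15.4% and 12.3% of all genes did so. DKK3, a member of the Dickkopf family that differs from the others in not being a clear Wnt antagonist, had the smallest adjusted p of all members. It lies at chr11:11963106-12009769 on the minus strand and went from 1916 and 1667 normalized counts to 3537 and 3633, 2.0-fold with separate arms (log2 fold change 1.0 ± 0.10 SE, n = 2 per arm, adjusted p 4.9e-08 in limma), and no alternative ended the call. SFRP5 fell from 2569 and 2348 to 2014 and 1779 (log2 fold change -0.38 ± 0.11 SE, adjusted p 0.0096 in limma). That call was lost without vehicle replicate 1 (0.0677) or decitabine replicate 2 (0.171) and without a variance trend (0.148). The remaining 4 were scarce and not called. NOTUM was at 69.2 and 57.5 in vehicle and 70.0 and 66.7 in decitabine. SFRP1, SFRP2 and WIF1, genes widely studied for promoter methylation in cancers, stayed between 7.18 and 35.9 in all 4 libraries with overlapping arms.

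Among the feedback genes of the pathway in H146, AXIN2 was called higher and ZNRF3 and LGR5 lower, where 15.4% and 12.3% of all genes were. AXIN2, a scaffold of the destruction complex and a target of β-catenin, rose from 889 and 861 normalized counts to 1169 and 1237 (1.37-fold, log2 fold change 0.46 ± 0.12 SE, n = 2 per arm, adjusted p 0.0038 in limma), with the arms apart. CTNNB1 itself rose from 13222 and 10810 to 14615 and 16228 (1.28-fold, adjusted p 0.016 in limma). ZNRF3, a ubiquitin ligase that removes Frizzled receptors from the cell surface, fell from 1679 and 1630 to 1327 and 1373 (-0.29 ± 0.11 SE, adjusted p 0.043 in limma). LGR5, an R-spondin receptor and stem cell marker, fell from 24.1 and 52.3 to 10.0 and 18.4 (-1.33 ± 0.45 SE, adjusted p 0.031 in limma). LGR4 (12085 and 12053, then 12139 and 15851), NKD1, NKD2 and APC were not called, nor were LEF1 (735 and 746, then 648 and 596), TCF7, TCF7L1 and TCF7L2. No nuclear factor of the 4 was called, by limma, edgeR or DESeq2, where limma called 27.7% of all genes. TCF7L1 alone had an unadjusted p under 0.05 in limma and in edgeR, as had 37.8% and 38.8% of all genes.

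The calls of these feedback genes and of CTNNB1 were among the weakest. ZNRF3 lost its call without any one of the 4 libraries (adjusted p 0.079 to 0.214), and by DESeq2 (0.0524). CTNNB1 was not called once vehicle replicate 2 (0.252) or either decitabine library (0.0841 and 0.232) was left out. The same 3 omissions ended the call of LGR5 (0.359, 0.323 and 0.0774), and DESeq2 did not call it (0.113). AXIN2 lost it without decitabine replicate 2 (0.0902). With no variance trend, AXIN2 (0.0766), CTNNB1 (0.206), LGR5 (0.168) and ZNRF3 (0.158) were not called, and same total scaling ended the calls of LGR5 (0.0654) and ZNRF3 (0.0631). In GENCODE release 29, 25.2% of the exonic bases of AXIN2 are shared with AC004805.1 on the same strand, and 8.50% of those of WNT11 and 3.96% of those of LGR5 with an antisense gene.

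Beyond these families, a list of other pathway genes had 50 tested members in H146, of which 11 were higher and 6 lower, where 15.4% and 12.3% of all genes were. That is 22% and 12% of the list, whose median log2 fold change was 0.15. The 4 with the largest rises were LGR6, DACT3, VANGL2 and KREMEN1. DACT3, which binds Dishevelled, went from 273 and 342 normalized counts to 810 and 822 (2.66-fold), and the planar polarity gene VANGL2 from 269 and 196 to 548 and 627 (2.53-fold). KREMEN1, a receptor for Dickkopf proteins, went from 960 and 848 to 2013 and 2093 (2.27-fold). LGR6, another R-spondin receptor, had 4 reads in vehicle over the arm and 49 in decitabine, and it passed the filter on low values through its decitabine libraries alone. Among the lower genes were CELSR1 of the planar polarity pathway (1197 and 1078 to 548 and 609), the APC partner AMER1 (1182 and 899 to 579 and 752), the Dishevelled gene DVL1 (5627 and 5964 to 4050 and 3621) and the target gene ASCL2. The adjusted p of these 8 genes ran from 9.9e-09 to 0.0013 in limma. Of 6 listed target genes 1 was higher and 2 were lower.

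In F1339 no Wnt gene was called. limma called 0 of 37 members and 0% of all 16680 genes tested, edgeR called 0 of either, and DESeq2 called 0 members but 0.462% of all genes higher and 0.18% lower. With the replicate number as a block, 11 members were called higher and 0 lower, where 4.66% and 3.29% of all genes were, although the labels do not say that the numbers pair libraries. At an unadjusted p under 0.05, limma gave 7 members, all of them higher (Wnt11, Wnt4, Wnt7a, Tcf7, Fzd1, Fzd5 and Notum), edgeR 8 and DESeq2 10, where 5.59% of all genes reached it in limma. The arms did not overlap in 16 members with decitabine above and in 1, Wif1, with decitabine below, where 17.9% and 18% of all genes did so. Of the 16, Wnt7a, Fzd1 and Sfrp4 passed the filter through their decitabine libraries alone, and 13 of 34 remain without them. Without these 3 genes, 5 of 34 members had an unadjusted p under 0.05 in limma and in edgeR and 7 in DESeq2, and the block called 8. The median log2 fold change was 0.38 over the members and -0.01 over all genes.

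**Figure D4:**
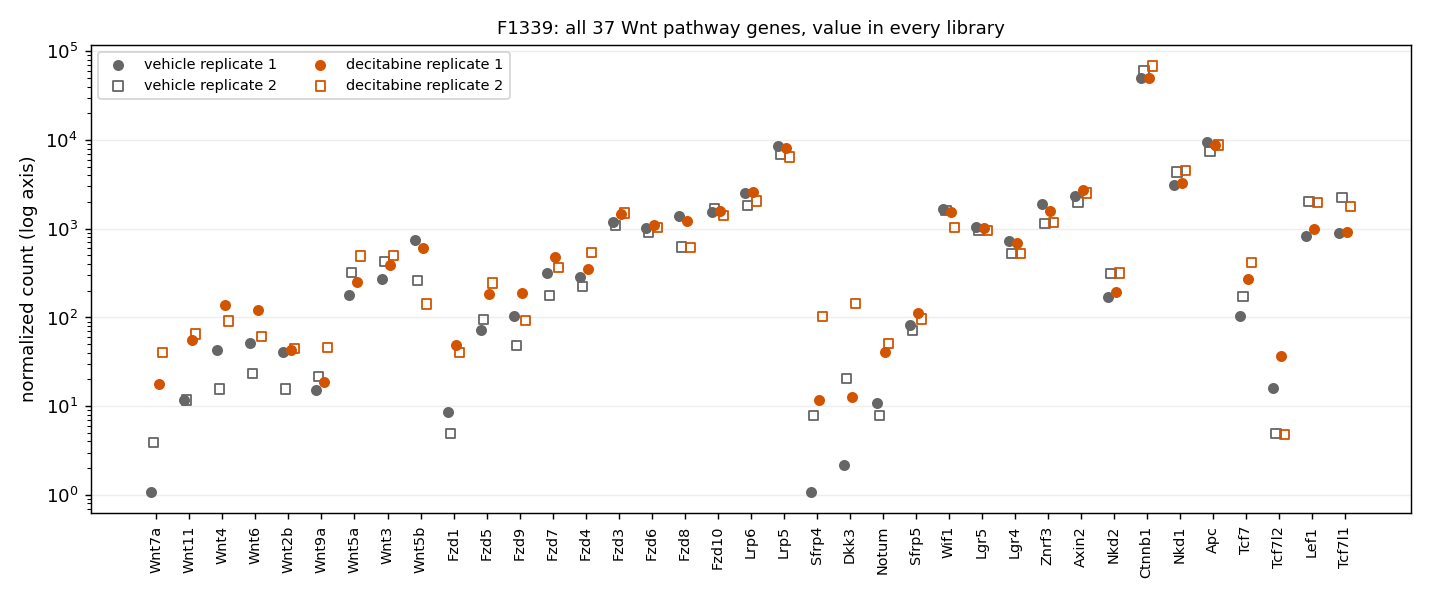
Normalized count (log axis) of the 37 Wnt genes of F1339 in each of the 4 libraries, by role. Wnt11 shows close replicates and separate arms (11.7 to 11.9 in vehicle, 56.0 to 65.3 in decitabine), while Lef1 and Tcf7l1 differ more between the libraries of an arm than between the arms.

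Several ligand genes of F1339 stood higher with decitabine from low levels. Wnt11 had 11.9 and 11.7 normalized counts in vehicle and 56.0 and 65.3 in decitabine, a ratio of 5.14 with close replicates (log2 fold change 2.26 ± 0.41 SE, n = 2 per arm, adjusted p 0.89 in limma). Wnt4 had 43.2 and 15.6 in vehicle and 138 and 91.2 in decitabine, a ratio of 3.89. For both the lowest decitabine library was above the highest vehicle library, as in H146. Wnt7a and Wnt6, chosen after their values were seen and not listed in H146, were at 1.08 and 3.90 and then 17.7 and 40.3, and at 51.8 and 23.4 and then 123 and 60.5. The more abundant ligands did not separate by arm. Wnt5a was at 178 and 320 in vehicle and 253 and 493 in decitabine, Wnt3 at 273 and 424 and then 387 and 502, and Wnt5b, with the highest mean normalized count of the ligands in vehicle, at 754 and 260 and then 611 and 142. Wnt9a, the leading ligand gene of H146, had 15.1 and 21.5 in vehicle and 18.7 and 46.1 in decitabine.

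Receptor genes of F1339 had 6 of 9 members with decitabine above and 0 below, where 17.9% and 18% of all genes did so, and 5 of 8 above without Fzd1, which passed the filter through its decitabine libraries alone. Fzd1, chosen after its values were seen, was at 8.64 and 4.88 normalized counts in vehicle and at 49.2 and 40.3 in decitabine, a ratio of 6.62. Fzd5 was at 72.4 and 95.6 in vehicle and 184 and 245 in decitabine, a ratio of 2.55 (adjusted p 0.89 in limma for both). Fzd10, called higher in H146, was at 1542 and 1708 in vehicle and 1599 and 1408 in decitabine, with overlapping arms. The co-receptor gene Lrp5 was at 8502 and 6908 in vehicle and 8134 and 6439 in decitabine.

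Of the 5 antagonist genes of F1339, 3 had decitabine above and 1 below, where 17.9% and 18% of all genes did so. Sfrp4, 1 of the 3, passed the filter through its decitabine libraries alone. Notum, chosen after its values were seen, stood at 10.8 and 7.80 normalized counts in vehicle and 40.3 and 50.9 in decitabine, a ratio of 4.90. Dkk3 was at 2.16 and 20.5 in vehicle and 12.8 and 144 in decitabine, so the arms overlapped, and Sfrp4, also chosen after its values were seen, at 1.08 and 7.80 and then 11.8 and 102. In both genes the library numbered 2 of each arm was several times the one numbered 1. Wif1, the most abundant antagonist gene, was at 1691 and 1595 in vehicle and 1550 and 1026 in decitabine. Sfrp5 was at 83.2 and 71.2 in vehicle and 113 and 96.0 in decitabine.

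Of the 12 downstream genes of F1339, Axin2 and Tcf7 had separate arms and the others overlapped. Both stood with decitabine above, as did 17.9% of all genes in F1339. Ctnnb1 stood at 50126 and 60157 normalized counts in vehicle and 50129 and 68471 in decitabine, Znrf3 at 1890 and 1140 and then 1581 and 1179, and Lgr5, called lower in H146 from a low level, at 1058 and 960 and then 1023 and 960. Axin2 was at 2368 and 2006 in vehicle and 2752 and 2523 in decitabine, a ratio of 1.21 with separate arms, in the direction of its rise in H146. Among the nuclear factors Tcf7, chosen after its values were seen, was at 105 and 173 in vehicle and 268 and 415 in decitabine (ratio 2.46). Lef1 was at 821 and 2046 in vehicle and 987 and 1972 in decitabine, and Tcf7l1 at 902 and 2255 and then 920 and 1768, so both differed more between the libraries of an arm than between arms. The 2 vehicle libraries differed by more than 1.5-fold in 19 of the 37 members in F1339 and in 5 of 41 in H146, with median ratios of 1.55 and 1.09. Summed endothelial markers were at 410 to 462 in vehicle and 770 to 1233 in decitabine in F1339, and summed neuroendocrine markers at 167986 to 273220 and 142028 to 204478. Their part in these values was not tested.

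**Figure D5:**
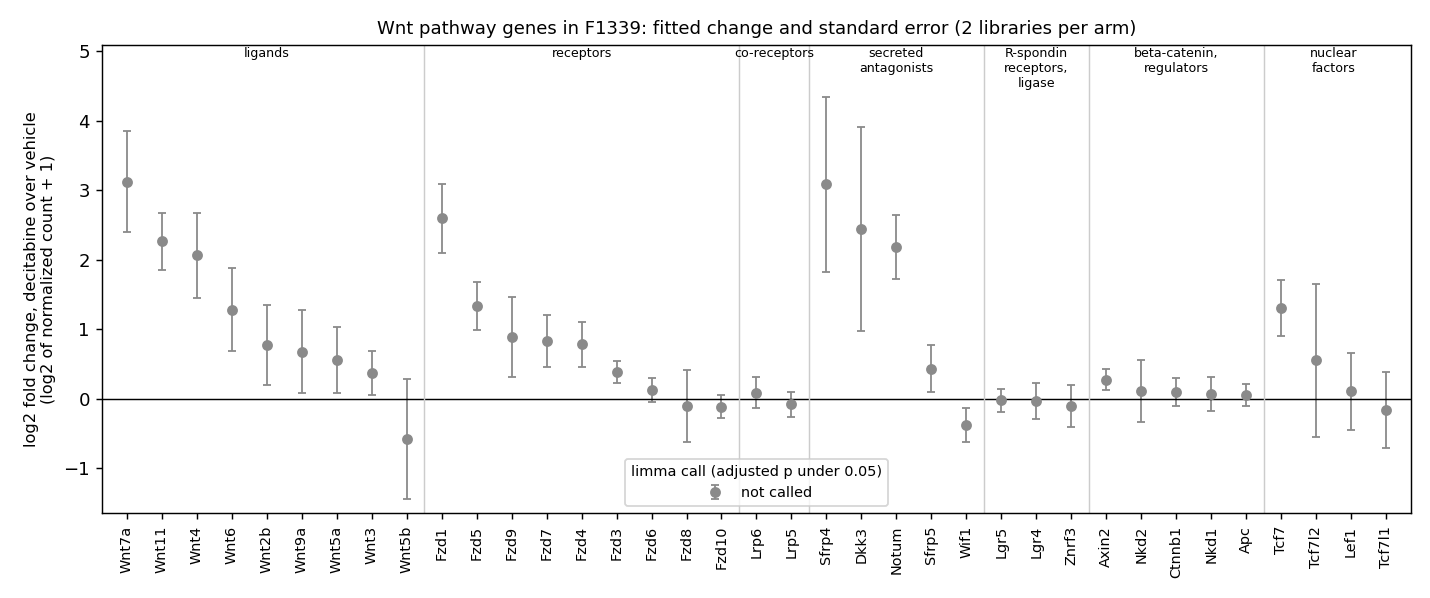
Log2 fold change of decitabine over vehicle with its standard error for the 37 Wnt genes of F1339, by role. None is called, and the ligand values run from Wnt7a at 3.12 to Wnt5b at -0.58.

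Of the 34 genes listed in both lines, 6 had both decitabine libraries above both vehicle libraries in each line: AXIN2, FZD4, FZD5, FZD7, WNT11 and WNT4. FZD7 is among them and passed the filter in H146 through its decitabine libraries alone. FZD4 is among them too, and in H146 limma did not call it (adjusted p 0.565). It stood there at 13.0 and 13.3 normalized counts in vehicle and 24.0 and 13.5 in decitabine. Of its exonic bases 18.9% overlap PRSS23 on the other strand. 0 genes had both decitabine libraries below both vehicle libraries in each line. Of the 11845 genes tested in both lines and matched by symbol, 6.92% were above in both and 8.4% below in both. The genes SFRP5 and TCF7 separated in opposite directions, and of these changes limma called only that of SFRP5 in H146. How many of all matched genes separated in opposite directions was not counted. The lines differ in species, in time and in the table they were normalized in, so the difference between them was not tested. Of the other pathway genes of F1339, 0 of 53 tested were called by limma, edgeR or DESeq2. Of all genes, limma and edgeR called 0, and DESeq2 called 0.462% higher and 0.18% lower. An unadjusted p under 0.05 was reached by 3 of the 53 in each tool. Of all genes, 5.59% reached it in limma, 5.58% in edgeR and 5.94% in DESeq2. The median log2 fold change of the 53 was 0.04.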

How the data were processed

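Libraries were grouped by line and treatment from their titles. Per the submitters' processing notes, the authors used Trimmomatic 0.36, STAR 2.5.2b, featureCounts (Subread 1.5.2) and DESeq2, with GRCh38 named for every sample, mouse included, and no source used here gives a mouse build, the annotation or the strandedness. Each deposited table holds 1 signal value per gene and library, reads scaled by a size factor, whose whole reads were recovered (100% within 0.001 read, 1 read being worth 0.960 to 1.08). The lowest row total is 41 reads. The deposited tables add the authors' log2 fold change and their p-value for each gene. The authors' sign is vehicle over decitabine for 41 of 41 members in H146 and the opposite for 37 of 37 in F1339, and changes here run from vehicle to decitabine.

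A gene was tested where 2 or more of a line's 4 libraries reached 10. Each line was fitted alone on log2(normalized count + 1), a scale that understates changes of low genes, with limma 3.58.1 in R 4.3.3 (variance trend, Benjamini-Hochberg adjustment over all genes tested, threshold 0.05). Folds are ratios of mean normalized counts. Alternatives were pseudocounts of 5 and 0.5, no filter or one at 50, upper quartile or same total scaling, no variance trend, edgeR 4.0.16, DESeq2 1.42.0, a replicate block, and omission of single libraries, a lone library then being taken to vary as the other arm does. The fits were tested on simulated counts. Genes were named where called, where most abundant in their role, or as the counterpart of such a gene in the other line, with the 4 largest changes each way among other pathway genes. Other genes are named too, and Fzd1, Notum, Sfrp4, Tcf7, Wnt6 and Wnt7a of F1339 were chosen after their values were seen. FZD10-AS1 was dropped as antisense. The members and lists were chosen with earlier results of these data known.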

Additional observations from a re-analysis of the deposited data

Results flagged for a closer look

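SFRP5 and TCF7 separated by arm in opposite directions in the 2 lines. In H146 31.5% of all genes separated with decitabine above and 30.6% below, and in F1339 17.9% and 18%. The share of all genes that separated in opposite directions was not counted. For SFRP5 the ratio of decitabine to vehicle means was 0.771 in H146 and 1.35 in F1339. For TCF7 the ratio was 0.917 in H146 and 2.46 in F1339. limma called the SFRP5 change in H146 and not the other 3. The adjusted p in limma was 0.557 for TCF7 in H146, and 0.908 for Sfrp5 and 0.89 for Tcf7 in F1339. With the replicate number as a block, Tcf7 was called higher in F1339 (adjusted p 0.0046 in limma). The differences between the lines were not tested.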

How the results depend on the processing

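No call in H146 reversed under any alternative. In F1339 limma without the block called 0 genes, so there was no call that could reverse. In H146, DKK3, FZD10, WNT5B and WNT7B were called under every alternative. Without a variance trend, the H146 Wnt genes called higher were 7 and lower 1, the other pathway genes 7 and 1, and all genes 1581 and 583. Same total scaling and DESeq2 each left 3 Wnt genes lower. With 1 library left out, the Wnt genes called higher ranged from 6 to 12 and those lower from 0 to 3, the other pathway genes from 8 to 13 and 3 to 5, and all genes from 1534 to 3054 and 987 to 2498. Without decitabine replicate 1, 6 Wnt genes were higher and 1 lower, without decitabine replicate 2, 6 and 0, and without either vehicle library 3 were lower. All genes called higher were then 1534 and 1670 without decitabine replicate 1 and 2, and lower 987 and 994, and 3 other pathway genes were lower without decitabine replicate 1. In F1339 DESeq2 called 77 genes higher and 30 lower, while limma called 0 with each library left out. Of members not called, 11 in H146 and 14 in F1339 changed sign under some alternative. Scaling to the same total moved the median of all genes to 0.09 in F1339.

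The replicate numbers are not said to pair libraries. Deviations of same-numbered libraries correlated at 0.69 in F1339 and -0.03 in H146 across genes. With the replicate number as a block, F1339 had 777 genes higher (4.66% of those tested) and 548 lower (3.29%). Of the Wnt genes 11 were higher and 0 lower, and of the other pathway genes 4 and 1. The 11 were Wnt11, Wnt4, Wnt6, Wnt7a, Fzd1, Fzd5, Fzd7, Dkk3, Notum, Sfrp4 and Tcf7. Wnt7a, Fzd1 and Sfrp4 passed the filter through their decitabine libraries alone, and without them the block called 8 of 34 higher. In H146 the block left 12 Wnt genes higher and 4 lower, against 14.1% and 10.9% of all genes. Genes with low normalized counts are limited by counting error and by 2 libraries per arm.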
